A study of Mus musculus with 34 samples.

Results

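The promoters of 47 genes for cytosolic ribosomal proteins were examined for peaks of AP-1 subunits and of 3 other transcription factors in mouse macrophages. The genes were a fixed list of symbols, 28 for the large subunit (Rpl) and 19 for the small subunit (Rps), among 21938 protein-coding genes of GENCODE vM21 on mm10. All 47 matched 1 gene each. A promoter was counted as bound in a list when the midpoint of a peak lay within 1 kb of the gene start. Ribosomal proteins assemble with ribosomal RNA into the 2 subunits of the ribosome, and their genes are transcribed at high levels in nearly every cell. Their promoters are known for short, often TATA-less cores with a pyrimidine-rich start and for sites of ETS family factors, YY1 and Sp1. They served here as a housekeeping reference for factors that are mostly studied at inflammatory and lineage genes.

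ChIP-seq had been performed in thioglycollate-elicited macrophages (TGEMs) of male mice, which are macrophages drawn into the peritoneum by an irritant and then cultured. The C57Bl/6EiJ samples covered ATF3, Jun, JunD, Fos, Fra2, JunB, PU.1 and CEBPa after Veh (PBS) or after 1 h of KLA, a lipid A that activates TLR4, and PPARg after Veh. The Balb/cJ samples covered ATF3, Jun, JunD, Fos and JunB with both treatments, and the PPARgKO samples, titled C57Bl6 and lacking the nuclear receptor PPARg, covered ATF3, Jun and JunD after Veh only. AP-1 subunits bind DNA as pairs through a bZIP domain, PU.1 is an ETS factor that sets up macrophage enhancers, and CEBPa is a bZIP factor of the myeloid lineage. How the PPARg gene was deleted is not given in the sources used here, and the lists hold nothing that checks the deletion. As a check of the cell type, promoters and gene bodies were searched for peaks of the PU.1 Veh list. Such a peak was present at 10 of 10 macrophage marker genes and at 1 of 6 genes of other cell types. The list held 41573 peaks, and no share over all genes is given for this check.

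There was 1 list per condition, 30 in all from 34 samples of which 4 were inputs, because replicate experiments had been combined into each list by the IDR (a measure of how well peak ranks repeat). No test between replicates was therefore possible, and genes are not replicates, so differences are described without p-values. The 95% Wilson intervals cover the limited number of genes only. Lists held from 0 to 41573 peaks and their median counts lay between 18 and 277 reads. The Balb/cJ Fos Veh list was empty, the Balb/cJ JunB Veh list held 9 peaks and the C57Bl/6EiJ JunB Veh list 463, with no peak at the 47 promoters in any of them (all promoters 0.178% in C57Bl/6EiJ JunB Veh and 0.00456% in Balb/cJ JunB Veh). The 27 lists of at least 1000 peaks carry the summaries. Counts are whole reads per peak that were not scaled to depth, so they were ranked within a list. Fewer called promoters and a shallower or less enriched library cannot be told apart in these lists.

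Nearly every ribosomal protein promoter carried a peak of some factor. A peak was present in at least 1 list at 46 of 47 promoters (97.9%), against 47.5% of all protein-coding promoters and 75.8% of the 9058 CpG-rich ones. The median ribosomal protein promoter had a peak in 7 lists, the median protein-coding promoter in 0 and the median CpG-rich promoter in 4. At least 10 lists had a peak at 16 promoters (34.0%), against 15.1% of all promoters and 24.0% of CpG-rich ones. In all there were 406 peaks at the 47 genes. The share of ribosomal protein promoters with a peak was above that of all promoters in 25 of the 27 lists, and the exceptions were C57Bl/6EiJ Fos Veh (4.26% against 4.86%) and C57Bl/6EiJ CEBPa KLA (6.38% against 6.67%).

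**Figure D1:**
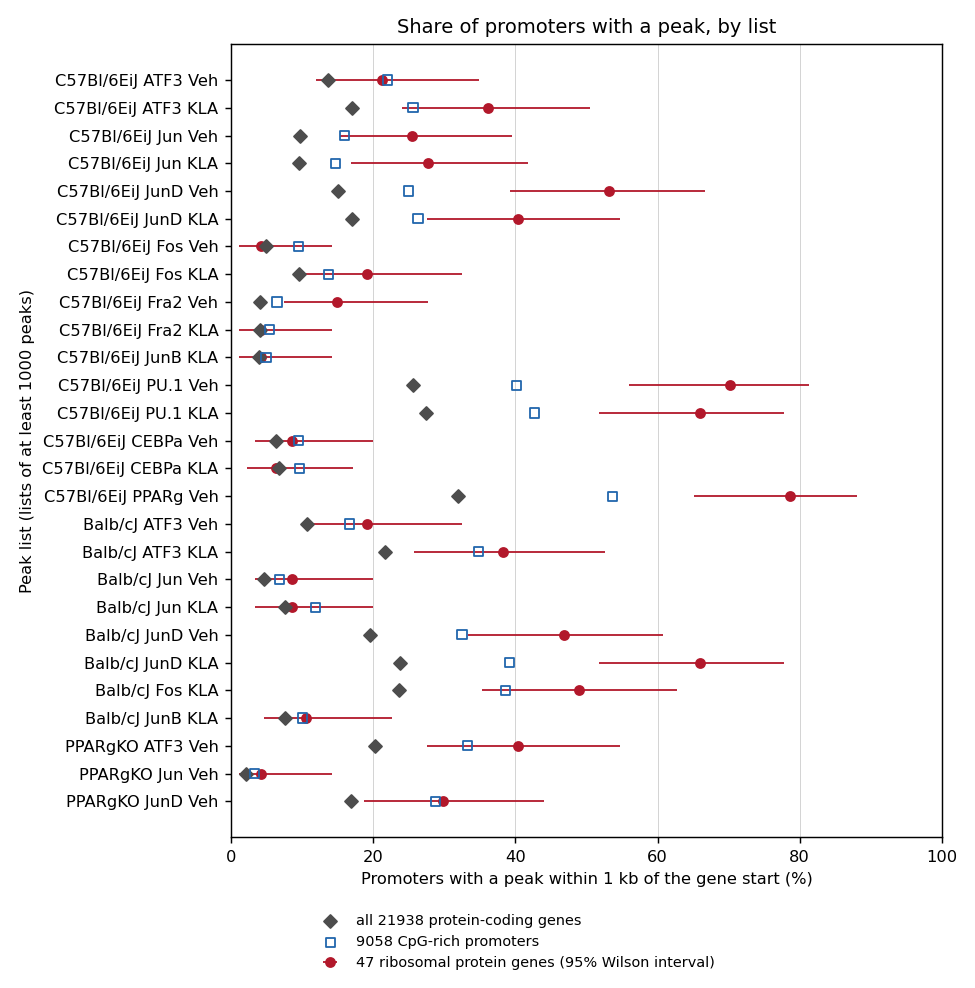
Share of promoters with a peak (x axis, percent) in each list of at least 1000 peaks (y axis) for the 47 ribosomal protein genes (circles, bars are 95% Wilson intervals), all 21938 protein-coding genes (diamonds) and 9058 CpG-rich promoters (squares). PPARg Veh (78.7%) and PU.1 Veh (70.2%) reach furthest to the right for the ribosomal protein genes, followed by PU.1 KLA and Balb/cJ JunD KLA (66.0% each).

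PPARg and PU.1 covered most of the family. In C57Bl/6EiJ Veh, 37 of 47 promoters had a PPARg peak (78.7%, interval 65.1 to 88.0), where 31.9% of all promoters and 53.7% of CpG-rich promoters did. PU.1 peaks were present at 33 promoters in Veh (70.2%, interval 56.0 to 81.3, all promoters 25.6%) and at 31 after KLA (66.0%, interval 51.7 to 77.8, all promoters 27.4%). Both factors had a peak at 26 promoters in Veh, which is 78.8% of the PU.1 set and 70.3% of the PPARg set. Among all promoters the same overlap was 73.0% of the PU.1 set and 58.5% of the PPARg set. These peaks were also high in their lists. The strongest peak of each bound promoter had a median count percentile of 66.9 in PPARg Veh, 58.2 in PU.1 Veh and 66.0 in PU.1 KLA, where all bound promoters had 55.3, 46.7 and 50.8. The highest PU.1 counts were at Rpl18, with 803 reads in Veh and 222 after KLA, and the highest PPARg count was at Rps19, the small subunit gene mutated in many patients with Diamond-Blackfan anaemia, with 189 reads at percentile 97.2. CEBPa was at 4 promoters in Veh (8.51%, all promoters 6.3%) and at 3 after KLA, with Rpl10a and Rpl23 kept, Rpl24 gained (all promoters 2.38%) and Rpl30 and Rpl37 lost (all promoters 2.01%).

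High coverage by these factors was shared with other housekeeping families. PU.1 Veh peaks were at 60.0% of 40 further cytosolic ribosomal protein genes and their close paralogues, 59.0% of 39 proteasome subunit genes, 52.6% of 78 mitochondrial ribosomal protein genes and 59.3% of 54 translation factor genes. For PPARg Veh these shares were 67.5%, 76.9%, 75.6% and 64.8%. For C57Bl/6EiJ JunD Veh the 47 genes had 53.2% against 27.5%, 43.6%, 29.5% and 33.3% in the same order. The gap was smaller in Balb/cJ JunD Veh, with 46.8% against 32.5%, 38.5%, 38.5% and 42.6%. After KLA the proteasome genes were above the 47 genes for JunD. They had 46.2% against 40.4% in C57Bl/6EiJ and 66.7% against 66.0% in Balb/cJ.

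In C57Bl/6EiJ and Balb/cJ Veh, JunD was the AP-1 subunit called at most ribosomal protein promoters, whereas in PPARgKO it was ATF3. In C57Bl/6EiJ Veh, JunD had a peak at 25 promoters (53.2%, interval 39.2 to 66.7), against 15.0% of all and 25.0% of CpG-rich promoters. Jun had a peak at 12 (25.5%, interval 15.3 to 39.5, all promoters 9.7%) and ATF3 at 10 (21.3%, interval 12.0 to 34.9, all promoters 13.7%), a share that lay below the 22.0% of CpG-rich promoters. Fra2 had a peak at 7 (14.9%, all promoters 4.09%) and Fos at 2 (4.26%, all promoters 4.86%), namely Rpl13a and Rpl37. The ATF3 list was the longest of the 3 main lists with 23160 peaks, next to 19653 for JunD and 15548 for Jun. The part of list length or enrichment in these counts was not tested.

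The combination of subunits differed from that of other bound promoters. ATF3, Jun or JunD was present at 30 ribosomal protein promoters, and JunD was alone at 13 of them (43.3%), where 21.3% of all promoters bound by any of the 3 had JunD alone. These were Rpl22, Rpl23, Rpl24, Rpl34, Rpl37, Rpl6, Rpl7a, Rps13, Rps16, Rps20, Rps21, Rps6 and Rps7. Jun and JunD without ATF3 were present at 6 (20.0%, other bound promoters included 5.99%), namely Rpl11, Rpl13, Rpl18, Rps18, Rps19 and Rps3. All 3 subunits were present only at Rpl10a, Rpl15 and Rpl3 (10.0%), where 26.4% of bound promoters overall carried all 3. Of the 25 promoters with JunD Veh peaks, 21 also had a PU.1 Veh peak (84.0%, all promoters 68.4%) and 20 a PPARg Veh peak (80.0%, all promoters 83.7%).

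AP-1 peaks at these promoters were mostly among the weaker peaks of their lists, as were those at bound promoters in general. The median count percentile of the strongest peak per bound promoter was 27.1 in C57Bl/6EiJ JunD Veh, 32.2 in Jun Veh and 32.4 in ATF3 Veh, and 34.1, 38.3 and 35.0 for all bound promoters. In reads, the median was 39 for JunD, 20.5 for Jun and 43.5 for ATF3. Other AP-1 lists went both ways against all bound promoters. The value was 39.8 against 35.8 in C57Bl/6EiJ JunD KLA and 44.9 against 41.9 in Balb/cJ JunD Veh. It was 41.2 against 43.9 in Balb/cJ JunD KLA and 23.4 against 39.1 in Balb/cJ ATF3 KLA. Over the 27 lists, which include PU.1, CEBPa and PPARg, the median of this percentile was 36.6. When each list was reduced to its strongest 50%, JunD Veh kept 4 of its 25 promoters (8.51%, all promoters 4.55%). PU.1 Veh kept 19 (40.4%, all promoters 11.9%) and PPARg Veh kept 26 (55.3%, all promoters 18.0%).

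Single genes differed widely in how many lists had a peak. The 10 genes with most lists were Rpl10a (23 lists), Rpl23 (19), Rps19 (17), Rpl22 and Rpl24 (15 each), Rpl27 (14) and Rpl15, Rpl18, Rpl26 and Rpl3 (13 each). Rpl10a encodes a protein of the stalk of the large subunit. In C57Bl/6EiJ its strongest peak held 83 reads for ATF3 Veh, 196 for ATF3 KLA, 49 for Jun in both treatments, 73 for JunD Veh and 453 for JunD KLA. It held 65 reads for Fos KLA and 31 for JunB KLA, 339 and 83 for PU.1 Veh and KLA, and 265 and 255 for CEBPa Veh and KLA. The CEBPa peaks stood at percentile 98.7 in both treatments, the highest rank of any of the 47 genes in any list, and PPARg and Fra2 had no peak there. In Balb/cJ the Rpl10a counts were 62 and 157 for ATF3 Veh and KLA, 40 and 58 for Jun, 96 and 112 for JunD, 147 for Fos KLA and 56 for JunB KLA. In PPARgKO they were 71 for ATF3, 14 for Jun and 64 for JunD. Rpl10a was the member with the highest count in most AP-1 and CEBPa lists. The other leading genes were Rpl3 in C57Bl/6EiJ JunD Veh (82 reads) and PPARgKO Jun Veh (17 reads), Rpl37 in Fos Veh (29 reads), Rpl23 in Fra2 Veh (32 reads), Rpl22 in Fra2 KLA (49 reads) and Rps14 in C57Bl/6EiJ JunB KLA (42 reads).

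Rpl23, a large subunit protein that also binds MDM2, followed in number of lists, and its JunD peaks were at or below the middle of their lists. Its JunD counts were 46 in C57Bl/6EiJ Veh, 143 after KLA, 39 in Balb/cJ Veh, 48 in Balb/cJ KLA and 30 in PPARgKO, at percentiles between 6.3 and 49.1. PU.1 gave 298 reads in Veh and 84 after KLA, and PPARg 51. At the other end, Rps2 had no peak in any list, Rpl7 and Rpl35 had a peak in 1 list, and Rpl12 and Rpl32 in 2, with peaks of PU.1 or PPARg only.

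**Figure D2:**
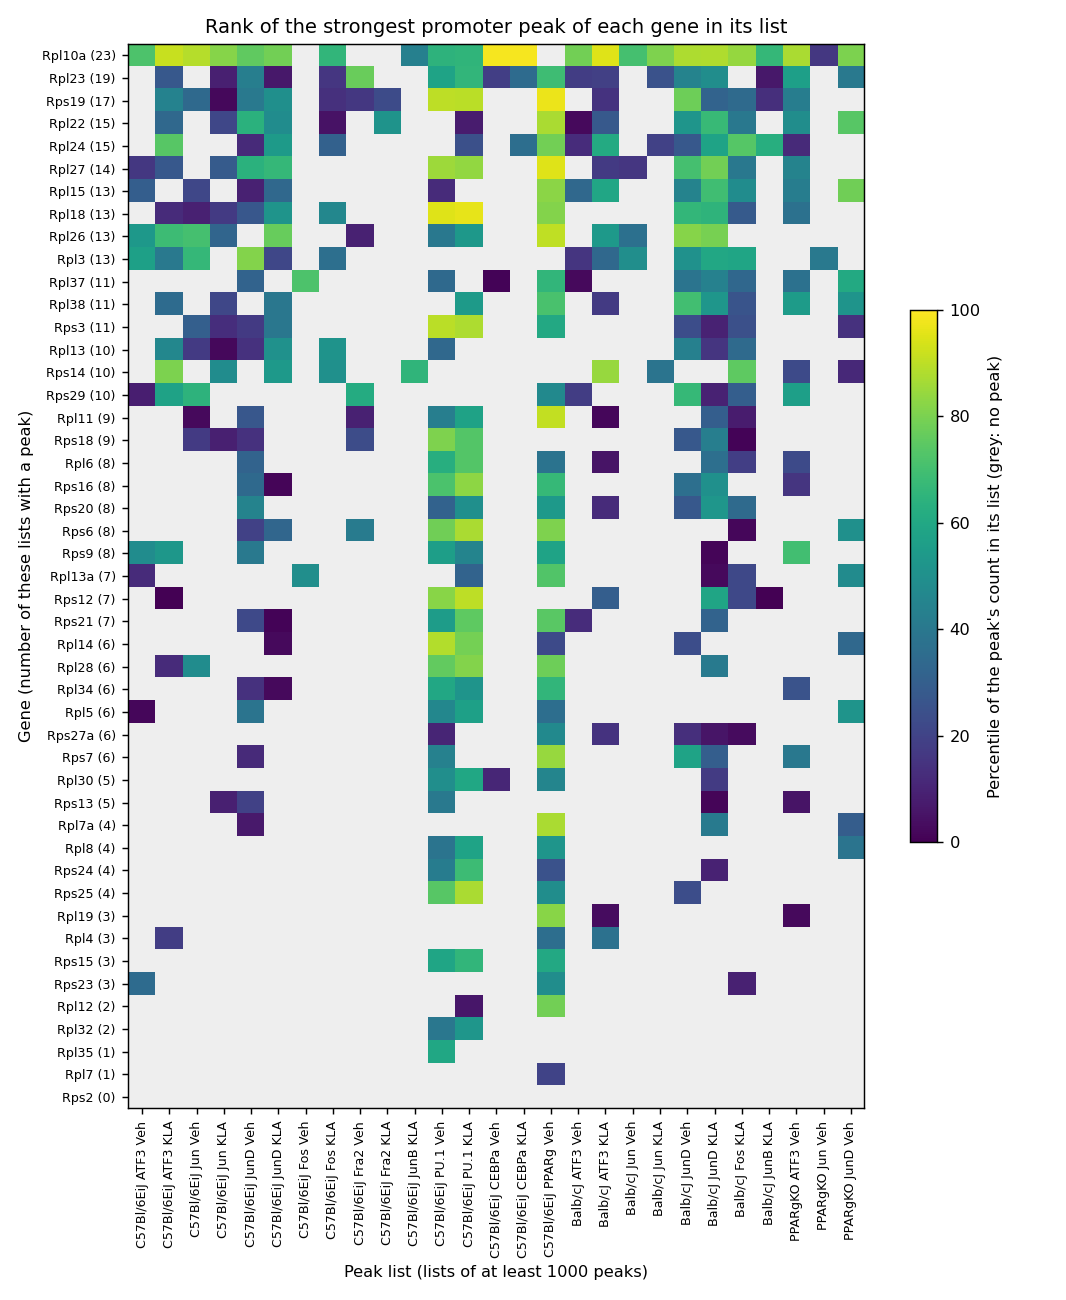
Percentile of the count of the strongest promoter peak within its list (colour, 0 to 100, grey where no peak was called) for the 47 ribosomal protein genes (y axis, number of lists with a peak in brackets) in the lists of at least 1000 peaks (x axis). The PPARg Veh and PU.1 Veh columns are the fullest, with 37 and 33 genes, and the row of Rpl10a, with 23 lists, is the longest.

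The absence of peaks at Rps2 rests on the annotated start. For 5 genes the GENCODE gene start lay more than 1 kb from the nearest curated RefSeq start, by 1947 bases at Rps2, 2614 at Rpl18, 3553 at Rps24, 8462 at Rpl3 and 27498 at Rps14. With RefSeq starts Rps2 had a peak in 11 lists, Rpl18 in 18 in place of 13, Rpl3 in 19 in place of 13 and Rps14 in 12 in place of 10, and the number of lists was the same at all other genes. The JunD Veh count was then 27 promoters (57.4%), PU.1 Veh 34 (72.3%) and PPARg Veh 38 (80.9%). C57Bl/6EiJ Fos KLA was then at 7 promoters in place of 9, and JunB KLA at 1 in place of 2. Calls named elsewhere at these 5 genes, such as Rpl3 and Rps14, use the GENCODE start. Another protein-coding start lay within 1 kb of 11 of the 47 starts, and without these genes the share was above that of all promoters in 27 of 27 lists. At the edge of the window, 12 peaks, all of Rpl3, lay between 900 and 1000 bases from the start and 15 peaks of Rpl12, Rpl3 and Rpl7a lay between 1000 and 1100 bases.

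Peaks sat close to the start. Over all lists the median midpoint was at -25 bases, and 68.2% of the 406 peaks lay within 250 bases, against 60.4% for all promoters. PU.1 and PPARg peaks were centred just inside the gene (medians 5.5 and 5.0 bases), and JunD peaks just before it (-22.0 bases). Merging peaks of all lists gave 44 sites within 250 bases of a start and 30 sites further away. Each of the 44 near sites had a peak in at least 1 Veh list. Of all near sites in the genome, 8.18% were found only after KLA. Of the 30 far sites, 8 (26.7%) were found only after KLA, against 23.5% of all far sites. In C57Bl/6EiJ AP-1 lists, 12 of 60 peaks (20.0%) were far in Veh and 33 of 68 (48.5%) after KLA, against 31.7% and 44.8% for all promoters. In Balb/cJ these shares were 28.9% and 34.1%, against 37.6% and 41.4%. Peaks of several lists at a site are not independent, and 6 of the 30 far sites belonged to the 5 genes whose RefSeq start lay elsewhere.

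4 sites far from the start or at the edge of the near range were chosen for display after their values were seen. They are shown because, at the first 3 genes, most or all lists with a peak at the site were KLA lists, whereas at Rpl10a both treatments had it. The sequences are from GRCm38.p6, 5' to 3' on the strand of the gene, with matches in capitals to the AP-1 site TGAGTCA (TRE) or to the CEBP site TTGCNNAA on either strand:
Rpl24, chr16:55966958-55967107, plus strand: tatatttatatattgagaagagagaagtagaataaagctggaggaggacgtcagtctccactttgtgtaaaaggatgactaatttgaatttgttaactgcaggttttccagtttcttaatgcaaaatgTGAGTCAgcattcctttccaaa
Rps19, chr7:24883858-24884007, plus strand: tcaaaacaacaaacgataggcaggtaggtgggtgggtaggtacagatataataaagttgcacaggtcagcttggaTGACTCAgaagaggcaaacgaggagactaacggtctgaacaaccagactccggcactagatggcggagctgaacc
Rpl13, chr8:123101829-123101978, plus strand: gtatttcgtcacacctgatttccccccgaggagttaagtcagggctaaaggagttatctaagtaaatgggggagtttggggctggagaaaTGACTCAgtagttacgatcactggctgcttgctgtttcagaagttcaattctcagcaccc
Rpl10a, chr17:28328149-28328298, plus strand: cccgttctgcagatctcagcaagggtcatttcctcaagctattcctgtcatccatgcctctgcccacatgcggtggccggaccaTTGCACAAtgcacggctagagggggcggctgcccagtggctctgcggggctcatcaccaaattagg

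At Rpl24, a large subunit protein at the interface of the subunits, the 5 Veh lists with a peak had it at the start, with midpoints between -7 and 61 bases. All 10 KLA lists with a peak had it between 741 and 830 bases inside the gene, and none at the start. JunD had this pattern in both strains, with 33 reads at the start in C57Bl/6EiJ Veh and 297 at the inner site after KLA, and with 29 and 56 reads in Balb/cJ. ATF3, Fos, JunB, Jun, PU.1 and CEBPa peaks lay at the inner site after KLA in at least 1 strain. The printed window spans bases 683 to 832 from the start, partly intron and partly coding exon, and holds a TRE at 811 to 817. At Rps19, 10 lists had a peak between -481 and -357 bases, 9 of them KLA lists, and the site holds a TRE at -438 to -432. The Veh list among them was C57Bl/6EiJ Jun. JunD Veh peaks of both strains were centred nearer to the start, at -307 and -271, but also spanned this TRE. With midpoints joined in steps of at most 150 bases, the site had 12 lists, 3 Veh and 9 KLA, from -481 to -271. The PU.1 and PPARg peaks lay between 23 and 206 bases inside the gene. At Rpl13, 5 KLA lists and no Veh list had a peak between -472 and -438 bases, with a TRE at -431 to -425, and 7 lists had a peak at the start. This window lies in no exon, but inside a longer predicted gene model, Gm20388, and the Rps19 window lies in no annotated gene. At Rpl10a, 23 lists had a peak between -367 and -197 bases, 11 in Veh and 12 after KLA. The window overlaps a non-coding transcript on the opposite strand and holds a CEBP match at -238 to -231 and no TRE.

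**Figure D3:**
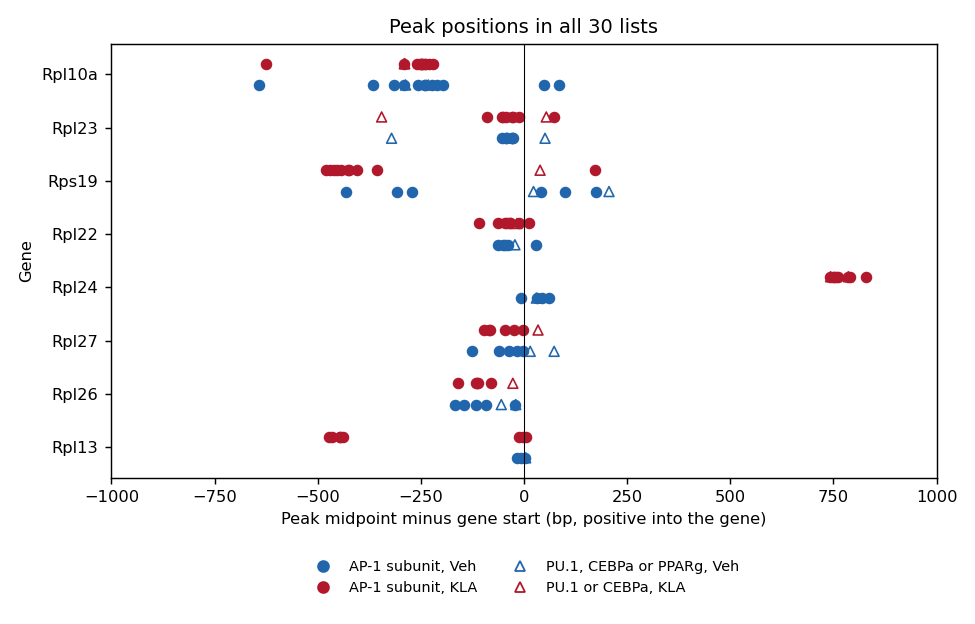
Midpoints of all peaks in the 30 lists relative to the gene start (x axis, bases) at 8 ribosomal protein genes (y axis), with Veh in blue and KLA in red, AP-1 subunits as filled circles and PU.1, CEBPa or PPARg as open triangles. KLA peaks of Rpl24 lie at 741 to 830 bases while its Veh peaks lie between -7 and 61, and Rpl10a peaks gather near -247 with both treatments.

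A TRE within 100 bases of the centre was found at 5 of the 30 far sites (16.7%, all far sites 9.54%) and at 2 of the 44 near sites (4.55%, all near sites 4.02%). Among far sites with a peak in at least 5 lists it was 4 of 9 (44.4%, all such sites 17.7%). These 4 were the displayed sites of Rpl24, Rps19 and Rpl13 and a site of Rpl3, whose RefSeq start lay elsewhere. Sites of Rpl18 and Rps14, likewise with a RefSeq start elsewhere, were also among the 9. The ETS core CCGGAAG, searched on both strands like every motif here, showed the reverse of the TRE. It was at 10 near sites (22.7%, all near sites 20.5%) and 2 far sites (6.67%, all far sites 6.99%). Near sites are shown by a gene with a TRE, a gene with the CRE form of the AP-1 site (TGACGTCA) and 2 genes with ETS cores, with the matches in capitals and each window ending before the annotated start:
Rpl22, chr4:152325628-152325741, plus strand: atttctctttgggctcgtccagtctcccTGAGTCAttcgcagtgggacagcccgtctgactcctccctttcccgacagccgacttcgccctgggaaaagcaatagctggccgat
Rpl26, chr11:68901392-68901541, plus strand: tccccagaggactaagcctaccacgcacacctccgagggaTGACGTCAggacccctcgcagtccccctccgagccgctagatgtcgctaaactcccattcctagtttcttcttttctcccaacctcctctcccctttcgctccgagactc
Rps6, chr4:86857413-86857508, minus strand: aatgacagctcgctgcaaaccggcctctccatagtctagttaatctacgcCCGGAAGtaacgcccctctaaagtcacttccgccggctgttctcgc
Rps21, chr2:180257274-180257376, plus strand: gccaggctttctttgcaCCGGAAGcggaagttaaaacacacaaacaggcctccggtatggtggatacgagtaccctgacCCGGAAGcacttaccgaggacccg

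Rpl22, a large subunit protein needed for T cell development, carried its TRE at -86 to -80 and had peaks in 15 lists between -110 and 29 bases. JunD gave 60 and 272 reads in C57Bl/6EiJ Veh and KLA, 44 and 67 in Balb/cJ and 55 in PPARgKO. Rpl26 had its CRE at -151 to -144 and peaks in 9 lists between -168 and -81 bases. Rps6, the substrate of S6 kinases, had an ETS core at -46 to -40 and peaks between -59 and 14 bases. In C57Bl/6EiJ its reads were 458 and 147 for PU.1 in Veh and KLA, 69 for PPARg and 36 and 216 for JunD. JunD had 35 reads there in PPARgKO and no peak in Balb/cJ with either treatment. Rps21 had ETS cores at -86 to -80 and at -24 to -18, with peaks in 6 lists between -116 and 21 bases.

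Across whole promoters (250 bases before to 50 after the RefSeq start, 38 genes with a RefSeq sequence against 16522 promoters) the ETS core was present at 15 genes (39.5%, all promoters 13.4%). The PU.1 site ACTTCCT was present at 10 (26.3%, all promoters 10.5%), the CRE at 4 (10.5%, all 2.64%), and a C at the start followed by 4 pyrimidines, the start of TOP mRNAs, at 8 (21.1%, all 2.71%). The TRE was present at 1, Rpl22 (2.63%, all 5.4%). The YY1 site AANATGGC was present at 6 (15.8%, all 7.59%), the E-box CACGTG at 6 (15.8%, all 9.18%), the Sp1 site CCCCGCCC at 8 (21.1%, all 27.1%), the CEBP site at 4 (10.5%, all 11.5%), the NRF1 site GCGCATGCG at 2 (5.26%, all 2.74%) and TATAAA on the sense strand at 1 (2.63%, all 9.46%). Around GENCODE starts the ETS core was at 12 of 47 promoters (25.5%, all 10.8%) and the PU.1 site at 9 (19.1%, all 9.35%), while the TOP start was at 4 (8.51%, all 2.34%), the YY1 site at 4 (8.51%, all 6.16%) and the NRF1 site at 0 (all 2.49%). By PU.1 Veh call, the ETS core was at 10 of 33 bound promoters (30.3%) and 2 of 14 others (14.3%), and over all promoters at 22.3% of bound and 6.83% of others.

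With KLA the calls of the subunits at these promoters differed in different directions. For ATF3 in C57Bl/6EiJ, 10 promoters had a peak in Veh and 17 after KLA (36.2%, all promoters 17.0%). Of these, 11 were gained (all promoters 7.01%), 6 kept and 4 lost (all promoters 3.71%). In Balb/cJ 9 had an ATF3 peak in Veh (19.1%, all 10.7%) and 18 after KLA (38.3%, all 21.7%), with 12 gained (all 12.9%) and 3 lost (all 1.88%). Both strains gained ATF3 at Rpl38, Rpl4, Rps12, Rps14 and Rps19. The KLA lists were longer, and with both lists of a pair cut to the length of the shorter one the ATF3 difference was -2.1 points in C57Bl/6EiJ (all promoters -4.6) and -8.5 in Balb/cJ (all promoters -1.7). With whole lists it was 14.9 (all promoters 3.3) and 19.1 (all promoters 11.0).

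With whole lists, JunD calls went opposite ways in the 2 strains. C57Bl/6EiJ had a JunD peak at 25 promoters in Veh and at 19 after KLA (40.4%, interval 27.6 to 54.7, all promoters 17.0%), with 4 gained (all 6.78%), 15 kept and 10 lost (all 4.78%). Balb/cJ had 22 in Veh (46.8%, interval 33.3 to 60.8, all 19.5%) and 31 after KLA (66.0%, interval 51.7 to 77.8, all 23.7%), with 11 gained (all 10.6%), 20 kept and 2 lost (all 6.34%). The difference was -12.8 points in C57Bl/6EiJ (all promoters 2.0) and 19.1 in Balb/cJ (all promoters 4.2). With lists of equal length it was -29.8 points in C57Bl/6EiJ (all promoters -7.0) and 4.3 in Balb/cJ (all promoters 0.9). Rpl11, Rpl6, Rpl7a, Rps13 and Rps9 lost the call in C57Bl/6EiJ and gained it in Balb/cJ, and Rpl14 did the reverse. The 40 further ribosomal protein genes were higher after KLA in both strains, with 27.5% and 37.5% in C57Bl/6EiJ and 32.5% and 60.0% in Balb/cJ. Proteasome genes had 43.6% and 46.2%, and 38.5% and 66.7%. Mitochondrial ribosomal protein genes had 29.5% and 28.2%, and 38.5% in both Balb/cJ lists. Translation factor genes had 33.3% and 35.2%, and 42.6% in both Balb/cJ lists. With RefSeq starts the counts of the 47 genes were 27 and 20 in C57Bl/6EiJ and 25 and 31 in Balb/cJ. With the strongest 50% of each list they were 4 and 7 in C57Bl/6EiJ (all promoters 4.55% and 5.82%). In Balb/cJ they were then 10 and 11 (all promoters 7.96% and 10.2%), so both strains were higher after KLA. With counts at or above the pooled median of 52 they were 4 and 19, and 7 and 9. With the strongest 5000 peaks they were 2 and 0, and 1 and 1. At the 15 promoters that kept JunD in C57Bl/6EiJ, counts relative to the median of all shared peaks ranged from -1.39 (Rpl3, 82 and 182 reads) to 0.63 (Rpl24, 33 and 297 reads, at different sites) on the log2 scale, with a median of 0.05 where all kept promoters had -0.16. The C57Bl/6EiJ JunD KLA list was the deepest of the JunD lists, with a median count of 277 against 50 in Veh, and its part in the difference was not tested.

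For Jun in C57Bl/6EiJ, 13 promoters had a peak after KLA (27.7%, all 9.51%), with 6 gained (all 4.68%), 7 kept and 5 lost (all 4.86%), and at equal length the difference was -8.5 points (all promoters -1.8) in place of 2.1 (all promoters -0.2). Balb/cJ had 4 in each treatment (8.51%, all 4.69% in Veh and 7.54% after KLA), with 3 gained (all 4.92%) and 3 lost (all 2.06%). Rpl23 and Rps14 gained Jun and Rpl3 lost it in both strains. Fos went from 2 promoters to 9 in C57Bl/6EiJ (19.1%, all 9.62%), where the 9 gained (all 7.64%) were Rpl10a, Rpl13, Rpl18, Rpl22, Rpl23, Rpl24, Rpl3, Rps14 and Rps19 and both Veh promoters were lost (all 2.88%). Cut to the 1804 peaks of the Veh list, the Fos KLA list had none of the 47, a difference of -4.3 points (all promoters -4.5). After KLA Fos was at 23 promoters in Balb/cJ (48.9%, interval 35.3 to 62.8, all 23.6%). JunB after KLA was at 2 promoters in C57Bl/6EiJ (4.26%, all 3.95%), Rpl10a and Rps14, both gained (all gained 3.88%, lost 0.109%), and at 5 in Balb/cJ (10.6%, all 7.52%), Rpl10a, Rpl23, Rpl24, Rps12 and Rps19. Fra2 had a peak at 7 promoters in Veh and 2 after KLA (4.26%, all 4.08%), with Rps19 kept, Rpl22 gained (all 2.78%) and 6 lost (all 2.78%). The Fra2 KLA list held 10619 peaks and the Veh list 5329. PU.1 kept 26 promoters, gained 5 (all 5.63%) and lost 7 (all 3.81%). At the 26 kept promoters the PU.1 count relative to all shared peaks had a median of 0.22 on the log2 scale, from -0.42 at Rpl14 to 0.67 at Rps24, where all kept promoters had 0.14.

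In PPARgKO the 3 subunits again differed. JunD had a peak at 14 promoters (29.8%, interval 18.7 to 44.0, all promoters 16.9%) in place of 25, with 5 gained (all 8.66%), 9 kept and 16 lost (all 6.76%). The share was 23.4 points lower than in C57Bl/6EiJ Veh, where that of all promoters was 1.9 points higher. The lists were of near equal length (19355 and 19653 peaks). Cutting them to equal length therefore removed few peaks, and the difference stayed at -23.4 points (all promoters 2.2). The kept promoters were Rpl10a, Rpl15, Rpl22, Rpl23, Rpl37, Rpl5, Rpl7a, Rps3 and Rps6. At these the relative count had a median of 0.01 on the log2 scale and ranged from -0.68 to 1.13. Rps3, at -0.68, had its peak 57 bases from the start in C57Bl/6EiJ (35 reads) and at a different place, 783 bases, in PPARgKO (19 reads). Rpl15, at 1.13, had overlapping peaks with midpoints at 334 (32 reads) and 199 bases (61 reads). The other 7 lay between -0.41 (Rpl23) and 0.24 (Rpl37). The 40 further ribosomal protein genes had JunD at 27.5% and 7.5%, while proteasome genes had 43.6% and 38.5%, mitochondrial ribosomal protein genes 29.5% and 34.6%, and translation factor genes 33.3% and 25.9%.

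ATF3 had a peak at 19 promoters in PPARgKO (40.4%, interval 27.6 to 54.7, all 20.3%) in place of 10, with 14 gained (all 9.53%), 5 kept and 5 lost (all 2.98%), a difference of 19.1 points (all 6.6) and of 10.6 at equal length (all 2.1). Other families were also higher for ATF3, with 25.6% and 51.3% of proteasome genes and 23.1% and 37.2% of mitochondrial ribosomal protein genes. The 40 further ribosomal protein genes had 25.0% and 30.0%, and translation factor genes 37.0% and 38.9%. Jun had a peak at 2 promoters, Rpl10a and Rpl3 (4.26%, all 2.04%), in place of 12, with none gained (all 0.611%) and 10 lost (all 8.27%). The 10 were Rpl11, Rpl13, Rpl15, Rpl18, Rpl26, Rpl28, Rps18, Rps19, Rps29 and Rps3. Lost promoters made up 83.3% of the ribosomal protein promoters with Jun in C57Bl/6EiJ and 85.3% of all promoters with Jun. The PPARgKO Jun list held 4290 peaks against 15548, and among the strongest 4290 peaks of the C57Bl/6EiJ list only 1 ribosomal protein promoter was bound, so at equal length the difference was 2.1 points (all promoters 0.7) in place of -21.3 (all promoters -7.7).

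**Figure D4:**
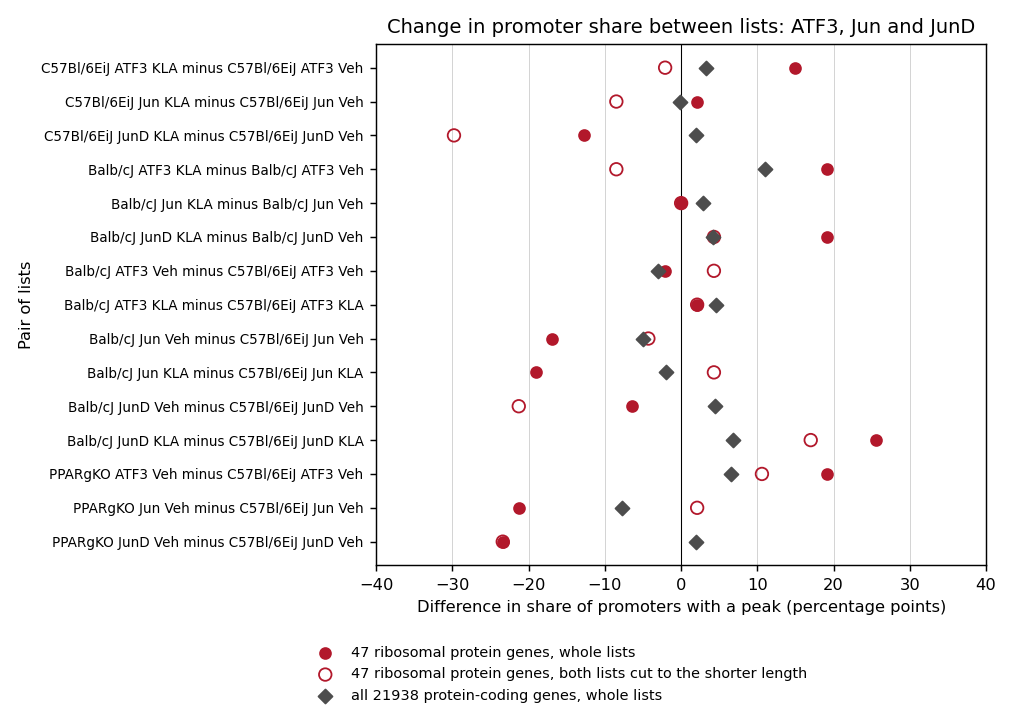
Difference in the share of promoters with a peak (x axis, percentage points) for each pair of ATF3, Jun and JunD lists (y axis), for the 47 ribosomal protein genes with whole lists (filled circles) and with both lists cut to the length of the shorter (open circles), and for all 21938 protein-coding genes (diamonds). JunD in PPARgKO is at -23.4 points in both forms, where the lists were already of near equal length. Jun in PPARgKO is at -21.3 with whole lists and 2.1 at equal length.

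Between the strains the largest differences with whole lists were in JunD and Fos after KLA, and at equal length in JunD, in opposite directions in Veh and after KLA. Balb/cJ had 25.5 points more JunD promoters after KLA than C57Bl/6EiJ (all promoters 6.8) and 17.0 at equal length (all promoters 5.6). For Fos after KLA the difference was 29.8 points (all promoters 14.0) and -4.3 at equal length (all promoters 1.3), with lists of 40459 and 24365 peaks. In Veh, the JunD difference was -6.4 points (all promoters 4.5) and -21.3 at equal length (all promoters -2.3). For Jun it was -17.0 points in Veh (all promoters -5.0) and -19.1 after KLA (all promoters -2.0). At equal length the Jun difference was -4.3 (all promoters -1.1) and 4.3 (all promoters 2.9). ATF3 differed by -2.1 points in Veh (all promoters -3.1), which was 4.3 at equal length (all promoters 0.3), and by 2.1 after KLA in both forms (all promoters 4.6 in both). Rpl10a, Rpl15, Rpl3 and Rps29 had ATF3 in both strains in Veh, and Rpl10a, Rpl26 and Rpl3 had Jun in both. JunD was shared in Veh at 16 promoters, which is 64.0% of the C57Bl/6EiJ set (all promoters 67.6%) and 72.7% of the Balb/cJ set (all promoters 51.9%).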

How the data were processed

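Peak lists of ChIP-seq in TGEMs were analysed, 1 for each of 30 conditions. Per the labels and the study's methods, the authors used Bowtie2 for alignment (mm10 for most samples and a Balb/cJ genome, with positions then shifted, for that strain). HOMER called the peaks over the input of the matching treatment, and IDR over replicate experiments filtered them. Versions are not given in the sources used here. The deposited lists give each peak a count (whole reads, not normalized) and an IDR score from 540 to 1000. How the authors combined counts of replicates is not stated. The labels name the strain C57Bl/6EiJ, while the study's methods write C57BL/6J.

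Peaks were assigned to gene starts of GENCODE vM21 within 1 kb by midpoint, in Python 3.11.15 with pandas 2.3.3 and numpy 2.4.6. Percentiles rank counts within a list. CpG-rich promoters had at least 50% GC and an observed to expected CpG ratio of at least 0.6 in 250 bases before to 50 after the start. Relative counts are log2 ratios minus the median over all overlapping peaks. For sites, midpoints in steps of at most 150 bases were joined. Sequences came from the GRCm38.p6 genome and from RefSeq promoters of that build, which matched 38 of 47 genes. The assignment was tested on simulated peaks.

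Named genes were the 10 with peaks in most lists, those with none, the strongest in each list, those with an ATF3, Jun or JunD call gained or lost alike with KLA in both strains and those losing Jun in PPARgKO. Other genes are named as extremes or as whole sets, and the merged and printed sites were chosen after their values were seen. The members, gene lists and rules were chosen with earlier results of these data known. Alternatives were other windows, starts, promoter backgrounds and count thresholds. RefSeq starts, longer lists, genes without neighbours and lists of equal length were added after seeing the data. The 4 inputs had no list and were not used.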

Additional observations from a re-analysis of the deposited data

Results flagged for a closer look

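With whole lists, the share of ribosomal protein promoters with a JunD peak differed in opposite directions with KLA in the 2 strains. It differed by -12.8 percentage points in C57Bl/6EiJ (25 and 19 of 47 promoters) and by 19.1 in Balb/cJ (22 and 31 of 47). With the strongest 50% of each list the count was higher after KLA in both strains (4 and 7, and 10 and 11). So was the whole-list share of the 40 further ribosomal protein genes (27.5% and 37.5%, and 32.5% and 60.0%). Each strain has 1 list per treatment, and the difference between the strains was not tested.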

How the results depend on the processing

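No paired analysis was possible because each condition has 1 list with no replicate number, and for the same reason no replicate could be left out. Over lists, the median share of ribosomal protein promoters with a peak was 25.5%, the median difference from all promoters 12.9 points, the median count percentile 36.6, the median KLA difference 2.13 points, the median strain difference -4.26 and the Jun difference in PPARgKO -21.3. With the strongest 50% of each list the share was 6.38%, the percentile 68.9 and the Jun difference -8.51. With the strongest 5000 peaks the share was 2.13%, the difference from all promoters 0.573, the percentile 87.4 and the KLA difference -2.13, and the Jun difference had no value because the PPARgKO list is shorter. With counts at or above the pooled median of 52, the share was 4.26%, the percentile 68.7, the KLA difference 19.1 and the Jun difference 0.0. These percentiles are higher by construction. The KLA difference was -2.13 points with midpoints within 250 bp. With pairs of lists cut to equal length it was -8.51, the Jun difference 2.13 and the strain difference 3.19. Against CpG-rich promoters the median difference of all 47, of which 32 were CpG-rich, was 5.49 points. The share lay above that of all promoters in 25 of 27 lists with RefSeq starts or any protein-coding transcript start, in 24 with 500 bp or any overlap, in 23 within 250 bp, in 21 with the strongest 50%, in 17 above the pooled median and in 17 of 25 with the strongest 5000 peaks. Counts of 0 and differences of a few promoters are limited by list depth and by the 47 genes.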
